A study of Mus musculus with 2 samples.

Results

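The genes described here encode the subunits of the mitochondrial respiratory chain that are made from nuclear DNA. They were chosen by symbol among the protein-coding genes of the annotation (Nduf, Sdh, Uqcr, Cyc1, Cox4 to Cox8 and Atp5 names), with a mean count of at least 10 over both libraries. The symbols matched 86 of the 54446 genes in the tables, and 81 of them had the mean count required, among 11952 protein-coding genes that did. Complex I had 36 of 37 matched genes, complex II 4 of 4, complex III 9 of 9, complex IV 15 of 18 and complex V 17 of 18. Just inside the bound was Cox4i2 with 11 and 9 counts, and just outside it Ndufa4l2 with 4 and 1. Cox7b2, Cox8b, Cox8c and a second gene named Atp5o (ENSMUSG00000116933) had 0 counts in both libraries, which allows levels of up to 0.169 (control) and 0.177 CPM (treated), those of 3 counts. CPM is the usual unit of a count relative to its library size, here after TMM scaling.

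The cells were bone marrow derived macrophages from mice of the C57BL/6 strain. One group was left without treatment, and the other, called treated below, received IL-36 gamma, an inflammatory cytokine related to interleukin-1. Each group is 1 library. The sources used here do not give the dose, the duration or whether cells of several animals were pooled. The control library held 17426367 gene counts and the IL-36 gamma library 17267900. With 1 library per group no test between conditions is possible. Every interval below is an exact 95% (Clopper-Pearson) interval of a ratio that covers counting error only, and every ratio divides the treated by the control library after scaling. In bulk RNA, fewer cells of a type and less RNA per cell cannot be told apart.

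The respiratory chain passes electrons from NADH (complex I) and succinate (complex II) through ubiquinone to complex III, and from there by cytochrome c to complex IV, which reduces oxygen. Complexes I, III and IV pump protons across the inner mitochondrial membrane, and complex V, the ATP synthase, uses that gradient to make ATP. All but complex II also hold subunits encoded in mitochondrial DNA, so their assembly draws on both genomes. Macrophages are known to shift between respiration and glycolysis when they are activated.

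The macrophage label was checked first. All 8 macrophage markers were abundant, with a summed level of 29439 CPM in the control and 29333 CPM with IL-36 gamma. Most of that came from Lyz2 (22763 and 22462 CPM). Single markers went both ways, with 3 intervals above 1 and 4 below, beside 22.6% and 17.1% of protein-coding genes. They ranged from a ratio of 0.786 (Mertk) to 1.35 (Fcgr1). The 4 T cell markers summed to 13.2 and 7.56 CPM, nearly all from Cd4 (232 and 128 counts), with Cd3e and Cd8a at 0 in both libraries and Cd3d at 2 and 0 counts. The 3 endothelial markers summed to 31.7 and 38.2 CPM, mostly from Pecam1 (509 and 617 counts). The erythroid markers summed to 0.281 and 0.0591 CPM, and the 3 B cell markers summed to 1.01 and 0.354 CPM. The 6 neutrophil markers summed to 87.2 and 144 CPM, mostly from S100a8 and S100a9, and the granule genes Mpo (6 and 14 counts) and Elane (3 and 22) were near 0. The 4 fibroblast markers summed to 9.9 and 5.97 CPM, with Pdgfra at 0. The part of such cells in the values below was not tested.

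Most nuclear respiratory chain genes had slightly more counts in the IL-36 gamma library. Of the 81 genes, 70 (86.4%) had an interval wholly above 1 and 1, Ndufs1, wholly below it, against 22.6% and 17.1% of protein-coding measured genes and 20.2% and 16.5% of all measured genes. The differences were small, with a median ratio of 1.18 (median log2 ratio 0.24) against a median log2 ratio of 0.02 over protein-coding genes. A ratio of at least 1.2 was seen for 32 genes (39.5%) and a ratio of at most 0.833 for 0, where 14.8% and 15.7% of protein-coding genes lay. No gene had its whole interval past 2-fold, as 0.142% of protein-coding genes had. Together the matched genes took 0.711% of gene counts in the control (95% Wilson interval 0.707 to 0.715) and 0.805% with IL-36 gamma (0.801 to 0.809).

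**Figure D1:**
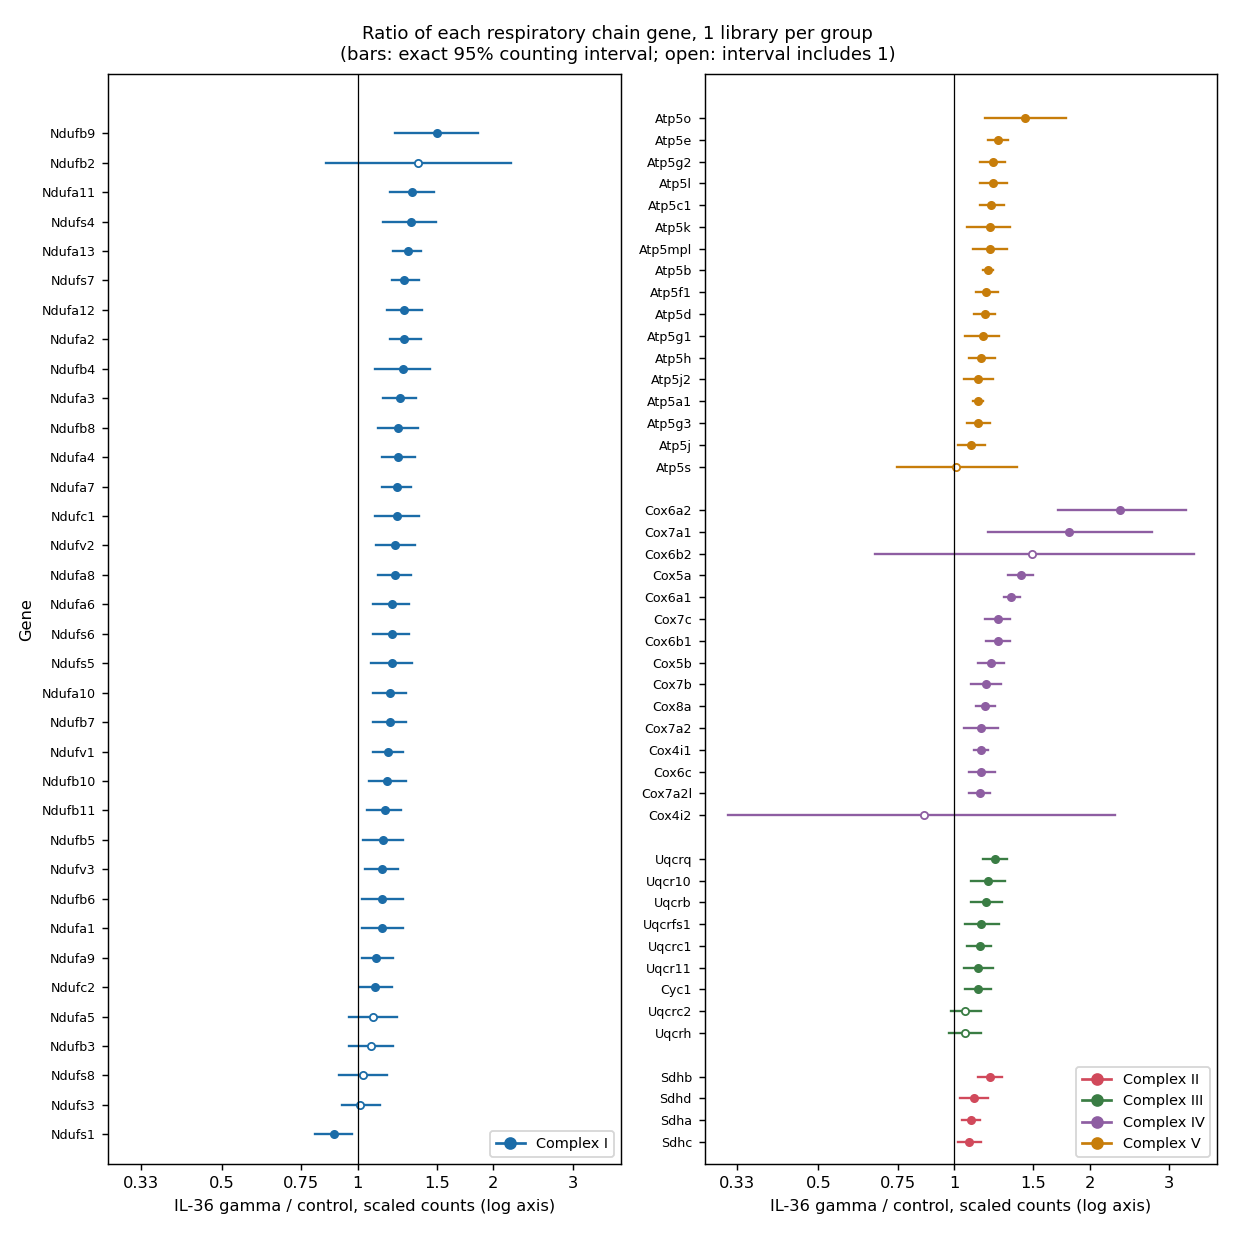
Ratio of scaled counts, IL-36 gamma over control (log axis), for 80 of the 81 genes, ordered by ratio within each complex; bars are exact 95% counting intervals, and open points have an interval that includes 1. Most points lie between 1 and 1.5, with Ndufs1 and Cox4i2 below 1 and Cox6a2, at 2.34, the highest.

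Abundant short genes were higher as a class, which bears on how that count is read. Among 562 protein-coding genes of at most 2000 exonic bases and a mean count of at least 500, 77.6% had an interval above 1 and 38.1% a ratio of at least 1.2. The respiratory chain genes within the same bounds numbered 44, of which 40 (90.9%) and 19 (43.2%) did so. Their median log2 ratio was 0.25 and that of the class, in which they are counted, 0.23. For the rule of a ratio of at least 1.2 the share of these genes therefore lay near the share of their class.

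The length dependence ran through the whole table. Over 10 equal groups of protein-coding genes ordered by exon length, the median log2 ratio went from 0.18 in the shortest (up to 1762 bases) to -0.17 in the longest (9814 bases and more). The respiratory chain genes had a median exon length of 1587 bases against 4442 for protein-coding genes, and 63 of them were in the 3 shortest groups. Within the shortest group, 44 genes of the chain had a median of 0.25, higher by 0.07 than the group, and in the next one 16 genes had a median of 0.26, higher by 0.12. In all, 67 of 81 lay above the median of their own length group. After removal of a smooth length trend the median of all 81 was 0.11 on the log2 scale, against 0.24 before. With the trend as the reference in place of 1, 35 genes (43.2%) had an interval wholly above it and 0 wholly below it, against 18.4% and 14.5% of protein-coding genes. Intervals call more genes where counts are high. Among the 44 abundant short genes of the chain, 15 lay above the trend and 0 below. In their class of 562 genes, 196 lay above and 78 below, so the shares above were alike. The length-adjusted medians were 0.05 for the 44 and 0.06 for the class.

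**Figure D2:**
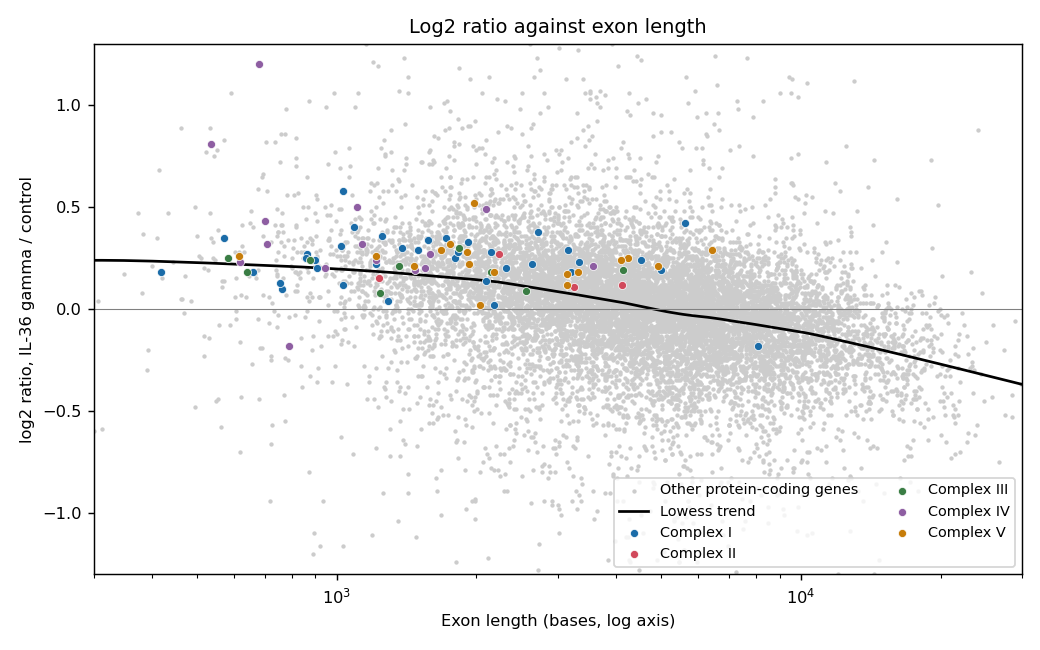
Log2 ratio, IL-36 gamma over control, against exon length (log axis) for protein-coding genes (grey), with the smooth trend (black line) and the nuclear respiratory chain genes coloured by complex; 81 other genes lie outside the axes. The trend falls from above 0 at short lengths to below 0 at long ones, and 66 of 81 coloured points lie above it.

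Complexes I, IV and V had the highest medians and complexes II and III the lowest, with wide overlap between their genes. The median log2 ratio was 0.25 for complex I, 0.13 for II, 0.19 for III, 0.27 for IV and 0.24 for V. Summed over genes, counts gave a ratio of 1.18 (1.16 to 1.19) for complex I, 1.11 (1.08 to 1.15) for II, 1.14 (1.12 to 1.17) for III, 1.22 (1.2 to 1.24) for IV and 1.17 (1.16 to 1.19) for V. The intervals of complexes II and IV do not overlap, but with 1 library per group the variation between cultures is unknown, and a difference between the complexes in their response was not tested. Complex II transcripts are long for the chain, with a median of 2744 exonic bases against 1108 for complex IV. With the length trend removed, the medians were 0.11, 0.07, 0.03, 0.11 and 0.11 for complexes I to V. This order depended on the length used: with the principal transcript in place of all exons, the medians were 0.07, 0.10, 0.02, 0.09 and 0.09.

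**Figure D3:**
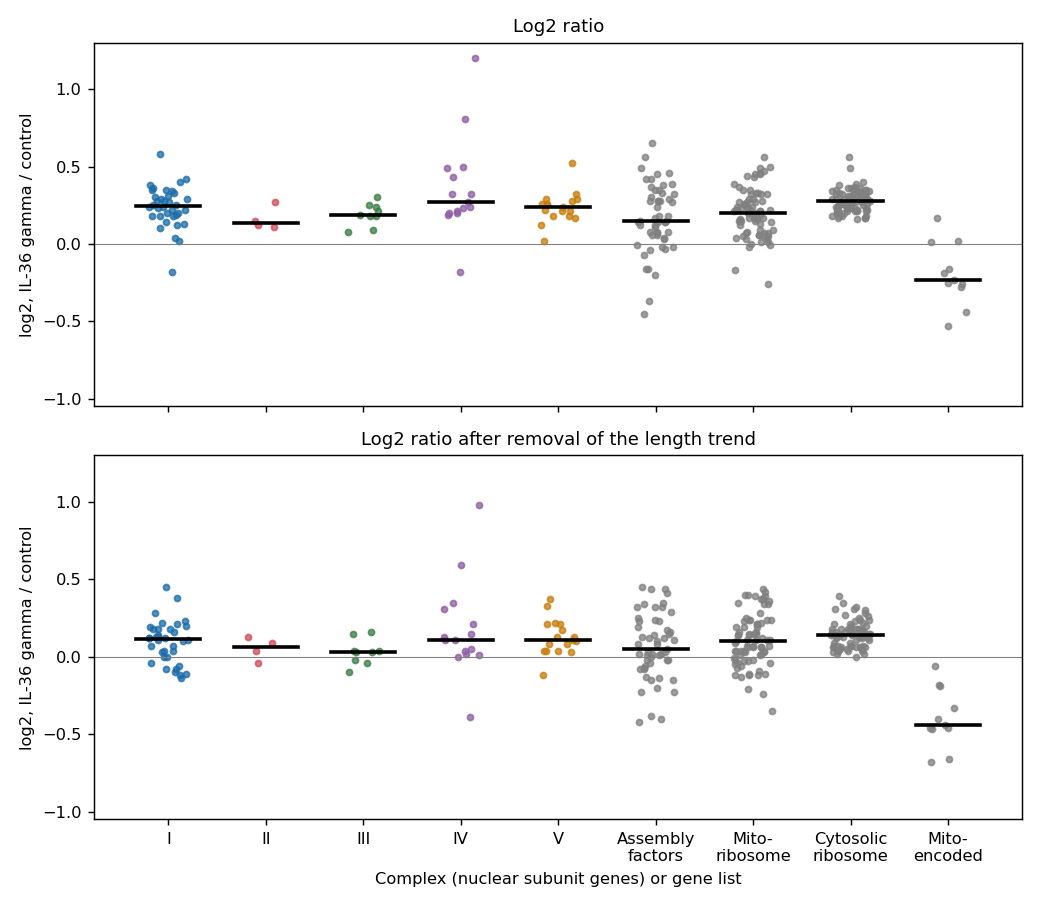
Log2 ratio of each gene before (top) and after (bottom) removal of the length trend, for nuclear subunit genes of complexes I to V and 4 other gene lists; each point is 1 gene and each bar the median of its list. The medians of complexes I, IV and V come to 0.11 in the lower panel, and the median of the mitochondrially encoded genes lies below 0 in both panels.

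In complex I, which takes electrons from NADH, 30 of 36 genes had an interval above 1, 5 included 1 and 1 lay below. For this and the counts of the other complexes, the background above 1 was 22.6% of protein-coding genes and 77.6% of abundant short ones. Below 1 lay 17.1% of protein-coding genes. The 7 core subunits encoded in the nucleus carry the flavin and the iron-sulfur clusters, and they were spread the most. Ndufs7, which holds the last cluster before ubiquinone, had 1458 control counts and 1770 in the treated library (ratio 1.27, 1.19 to 1.37). The NADH-binding flavoprotein gene Ndufv1 had 1193 and 1325 counts (1.17, 1.08 to 1.26), and its partner Ndufv2 736 and 850 (1.21, 1.1 to 1.34). Counts were nearly equal for Ndufs3 (886 and 856 counts, 1.01, 0.922 to 1.12) and Ndufs8 (540 and 529, 1.03, 0.91 to 1.16), 2 subunits of the quinone-reducing part.

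Ndufs1 (ENSMUSG00000025968, chromosome 1, 63143596 to 63176833, minus strand, mm10), the largest core subunit, with iron-sulfur clusters, was lower with IL-36 gamma. It had 981 control counts and 827 in the treated library (ratio 0.885, 0.806 to 0.972). It also has the longest exons of the 81 genes, 8086 bases, where the length trend is -0.08, and its length-adjusted value of -0.10 had an interval that includes the trend. An antisense gene, Ino80dos, covers 248 of its 2181 coding bases, and with a 99% interval the ratio includes 1.

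The 29 other complex I genes encode accessory subunits, which surround and stabilise the core, and 26 of them had an interval above 1. Their ratios ran from 1.07 to 1.5, with a median log2 ratio of 0.25. Among those with at least 100 counts, Ndufb9 (154 and 220 counts, 1.5, 1.21 to 1.85) and Ndufa13 (1345 and 1647, 1.29, 1.2 to 1.38) had the highest lower bounds. Ndufa13 is also known as GRIM-19, a partner of the transcription factor STAT3. Ndufs4, whose loss in mice causes a fatal brain disease, had 415 and 516 counts (1.31, 1.14 to 1.49). Ndufa5 (526 and 543 counts, 1.08, 0.959 to 1.22), Ndufb3 (608 and 622, 1.07, 0.959 to 1.2) and Ndufb2 (34 and 44, 1.36, 0.849 to 2.19) had intervals that include 1. Ndufa4, listed by name with complex I but now known as a subunit of complex IV, had 1019 and 1193 counts (1.23, 1.13 to 1.34), and its isoform gene Ndufa4l2, known from low oxygen, was too low to measure.

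Complex II, succinate dehydrogenase, links the tricarboxylic acid cycle to the chain, and its oxidation of succinate is known for its role in inflammatory macrophages. All 4 genes had an interval above 1, with ratios from 1.08 to 1.2. The iron-sulfur subunit gene Sdhb (ENSMUSG00000009863, chromosome 4, 140961203 to 140979193, plus strand) had 1840 control counts and 2109 in the treated library (ratio 1.2, 1.13 to 1.28). The flavoprotein gene Sdha had 3757 and 3891 counts (1.09, 1.04 to 1.14). The membrane anchor genes were Sdhc (1935 and 1995 counts, 1.08, 1.02 to 1.15) and Sdhd (1591 and 1680, 1.11, 1.03 to 1.19), whose intervals overlap that of Sdha. Against the length trend, Sdha (0.09) and Sdhb (0.13) had intervals above it and the anchors (0.04 and -0.04) did not. Of protein-coding genes, 18.4% had an interval above the trend.

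In complex III, which passes electrons from ubiquinol to cytochrome c, 7 of 9 genes had an interval above 1 and 0 below. That share above 1 lay near the 77.6% of abundant short protein-coding genes. The range of ratios was narrow, from 1.06 to 1.23. The redox subunit genes Cyc1, for cytochrome c1 (1643 and 1774 counts, 1.13, 1.06 to 1.21), and Uqcrfs1, for the Rieske iron-sulfur protein (971 and 1068, 1.15, 1.06 to 1.26), were alike. Of the core protein genes, Uqcrc1 had 1892 and 2055 counts (1.14, 1.07 to 1.21) and Uqcrc2 1302 and 1318 (1.06, 0.983 to 1.15). Among the 5 small subunits, Uqcrq (1812 and 2130 counts, 1.23, 1.16 to 1.31) was the highest and Uqcr10 (968 and 1098, 1.19, 1.09 to 1.3) next. The hinge protein gene Uqcrh (1157 and 1165, 1.06, 0.973 to 1.15) was the lowest. After length adjustment the median of the complex was 0.03. Of the 9 genes, 2, Uqcrc1 (0.16) and Uqcrq (0.15), had intervals above the trend, beside 18.4% of protein-coding genes.

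Complex IV, cytochrome c oxidase, held the most abundant genes per length and the largest ratios. All 10 genes of the subunit forms found in most tissues had an interval above 1, with ratios from 1.15 to 1.41. Cox5a (ENSMUSG00000000088, chromosome 9, 57521274 to 57532426, plus strand), which binds next to the mitochondrially encoded core, had 1775 control counts and 2379 in the treated library (ratio 1.41, 1.32 to 1.5). Cox6a1 (ENSMUSG00000041697, chromosome 5, 115345642 to 115348981, minus strand) had 4981 and 6378 counts, a ratio of 1.34 (1.29 to 1.40). The other 8 lay between 1.15 and 1.25. Of those, Cox4i1, the largest nuclear subunit, had 6276 and 6884 counts (1.15, 1.11 to 1.19), the zinc-binding subunit gene Cox5b 1745 and 2007 (1.21, 1.13 to 1.29) and Cox6b1, at the face of the dimer, 2117 and 2527 (1.25, 1.18 to 1.33). Cox8a had 3088 and 3456 counts (1.17, 1.12 to 1.23) and Cox7a2 999 and 1094 (1.15, 1.05 to 1.25). Cox7a2l, known as a factor for supercomplexes of complexes III and IV, had 2808 and 3043 counts (1.14, 1.08 to 1.2). Its action in these cells was not tested. An antisense gene, Gm26631, covers 111 of the 438 coding bases of Cox5a, while no other gene overlaps the coding bases of Cox6a1.

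The muscle isoforms of 2 complex IV subunits had the largest ratios of all 81 genes, at low counts. Cox6a2 (ENSMUSG00000030785, chromosome 7, 128205435 to 128206387, minus strand), the form of heart and skeletal muscle, had 56 control counts and 125 in the treated library (ratio 2.34, 1.70 to 3.27). Cox7a1 (ENSMUSG00000074218, chromosome 7, 30184144 to 30186078, plus strand), also a muscle form, had 38 and 65 counts, a ratio of 1.80 (1.19 to 2.75). Their counterparts Cox6a1 and Cox7a2 had ratios of 1.34 and 1.15, and the intervals of Cox6a2 and Cox6a1 do not overlap. After length adjustment, the interval of Cox6a2 (0.98) lay above the trend and that of Cox7a1 (0.59) included it. The level of the muscle form was low in both libraries, at 10.9 CPM per kb of transcript for Cox6a2 against 660 for Cox6a1 in the IL-36 gamma library. The lung and low-oxygen form Cox4i2 (11 and 9 counts, 0.859, 0.315 to 2.28) and the testis form Cox6b2 (12 and 17, 1.49, 0.669 to 3.41) had intervals that include 1. No coding base of Cox6a2, Cox7a1 or Cox6b2 is overlapped by another gene. Outside the coding part, exons on the opposite strand overlap 70 of the 680 exonic bases of Cox6a2. The part of antisense reads in its counts was not tested.

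In complex V, the ATP synthase, 16 of 17 genes had an interval above 1 and 0 below. All 5 genes of the F1 part, which is the catalytic head with its central stalk, had intervals above 1 and above the length trend. Above that trend lay 18.4% of protein-coding genes and 196 of the 562 abundant short ones. These 5 genes were highly counted, and intervals call more genes where counts are high. The ratios of the 5 ran from 1.13 to 1.25. The beta subunit gene Atp5b (ENSMUSG00000025393, chromosome 10, 128083273 to 128090391, plus strand), which carries the catalytic sites, had 9720 control counts and 11021 in the treated library (ratio 1.19, 1.16 to 1.22). The alpha subunit gene Atp5a1 had 9289 and 9981 counts (1.13, 1.1 to 1.16) and the gamma, or rotor, subunit gene Atp5c1 1835 and 2124 (1.21, 1.14 to 1.29). The delta subunit gene Atp5d had 2824 and 3141 counts (1.17, 1.11 to 1.23) and the epsilon subunit gene Atp5e 2514 and 2999 (1.25, 1.19 to 1.32).

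The rotating c ring is made from 3 genes that encode the same mature protein behind different import signals. Atp5g1 had 1046 and 1152 counts (1.16, 1.06 to 1.26), Atp5g2 1817 and 2111 (1.22, 1.14 to 1.3) and Atp5g3 2148 and 2313 (1.13, 1.07 to 1.2), and their intervals overlap. The stator, or peripheral stalk, genes Atp5f1, Atp5h, Atp5j and Atp5o all had intervals above 1, from a ratio of 1.09 (Atp5j, 1576 and 1635 counts, 1.02 to 1.17) to 1.44 (Atp5o, 162 and 222 counts, 1.17 to 1.77). The 4 small membrane subunits Atp5j2, Atp5k, Atp5l and Atp5mpl lay between 1.13 and 1.22. Atp5s, for a regulatory factor that is no structural subunit, had 90 and 87 counts (1.01, 0.747 to 1.38).

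Complexes IV and V had the highest levels per length. In CPM per kb of the longest principal transcript, the median gene stood at 57.0 for complex I, 72.8 for II, 67.0 for III, 147 for IV and 110 for V in the control. With IL-36 gamma these levels were 66.1, 79.9, 82.7, 167 and 119. Complex IV was topped by Cox6a1 (491 and 660 CPM per kb), complex V by Atp5e (336 and 421) and complex I by Ndufa7 (137 and 166). Complex I had its lowest level at Ndufb2, with 0.438 and 0.595 CPM per kb. That level is uncertain, since other genes cover 72.7% of its coding bases and its principal transcript is long (4371 bases). By median, complex IV was first, V second and I last in both libraries, while II and III, whose genes overlap widely, changed places.

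**Figure D4:**
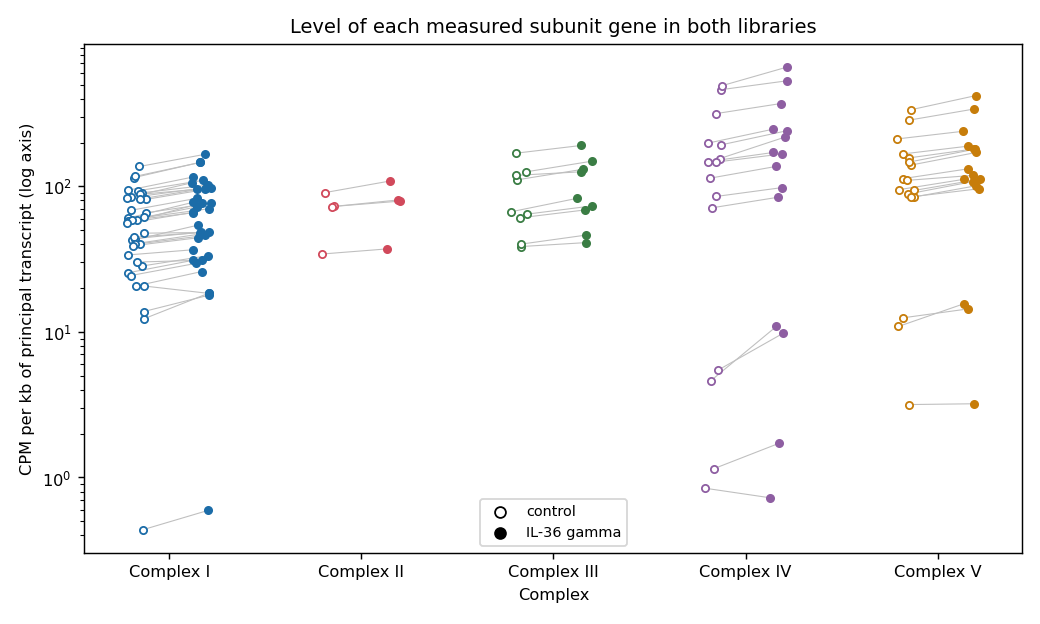
Level of each measured gene in CPM per kb of its principal transcript (log axis) by complex, with open points for the control library, filled points for the IL-36 gamma library and lines joining the same gene. Genes of complex IV reach 660, and its 4 tissue isoforms lie far below its other genes.

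Some members share sequence with other genes. Of the coding bases of Ndufb2, 72.7% are covered by exons of Gm42420 or Gm16272, of Atp5o 43.7%, by the second Atp5o gene and D430001F17Rik, and of Ndufb9 37.4%, by Gm49356. Reads that fit 2 genes were set apart by the counter (1.79% of the control total and 1.84% of the other), so the counts of these 3 genes come from part of the transcript and are uncertain. Of the 81 genes, 10 had over 10% of their coding bases covered by another gene. In 29, over 10% of the 50-base words of the principal transcript also stand in transcripts of other annotated genes. The shares were 87.4% for Atp5g2, 84.8% for Atp5l and 53.0% for Cox7c. The 31 genes with either trait had a median log2 ratio of 0.24, and the 50 without had 0.23.

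Promoters of these genes are known for sites of NRF1, of ETS factors such as GABP, and of YY1, which regulate genes of respiration. In RefSeq promoters (GRCm38.p6, 250 bases before to 50 after a start), 64 of the 81 genes had an entry by symbol, with 69 promoters. The search covered 4 motifs on both strands. The NRF1 core GCATGCGC overlaps its own reverse complement and was in 10 member promoters (14.5%), against 5.18% of promoters of measured protein-coding genes and 2.71% of all promoters. The ETS motif CCGGAAG was in 16 (23.2%, against 17.7% and 8.86%) and the YY1 core AAGATGGC in 9 (13.0%, against 4.48% and 2.75%). TATAAA was in 6 (8.7%, against 7.13% and 13.6%). Of the 9 promoters with the YY1 core, 7 belong to complex I, as do 34 of the 69 promoters searched. The windows below, 26 bases each, 5′ to 3′ on the strand of the gene, show the match in capitals for the 3 genes with the most counts per motif, first NRF1, then ETS, then YY1.
Cox6a1 (chr5:115349104-115349129, minus): aggaacgggGCGCATGCgcgctctcg
Sdhb (chr4:140961208-140961233, plus): gcccagtggGCATGCGCcctacgggc
Uqcrc1 (chr9:108936669-108936694, plus): ctccgctctGCGCATGCgcagcgcgg
Cox6a1 (chr5:115348958-115348983, minus): ccatttccgCTTCCGGcgcgccggtg
Cox8a (chr19:7217605-7217630, minus): tccgaaataCTTCCGGctcgggcgtc
Atp5e (chr2:174464187-174464212, minus): cggccacagCTTCCGGtagccgctcg
Ndufs7 (chr10:80249464-80249489, plus): gccgaggccAAGATGGCggcgctggc
Atp5j (chr16:84835048-84835073, minus): agtgtaggaAAGATGGCggagtctta
Atp5j2 (chr5:145191502-145191527, minus): caggacttcAAGATGGCgtcactcgg

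Ratios were set beside these matches as a description. Genes with the NRF1 core had a median log2 ratio of 0.27 (10 genes) and those without 0.24 (54 genes). For the ETS motif the medians were 0.22 (16 genes) and 0.25 (48), and for the YY1 core 0.29 (9) and 0.24 (55). TATAAA gave medians of 0.29 (5 genes) and 0.24 (59), the same as the YY1 core. Of the genes shown, Cox6a1, with both an NRF1 and an ETS match, had a ratio of 1.34, and Atp5j, with the YY1 core, a ratio of 1.09.

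The well counted subunits encoded in mitochondrial DNA were level or lower in the treated library. Of 11 measured genes, 0 had an interval above 1 and 5 below, beside 22.6% and 17.1% of protein-coding genes, with a median log2 ratio of -0.23, or -0.44 after length adjustment. In complex I, mt-Nd5 had 14054 and 9263 counts (0.692, 0.674 to 0.710) and mt-Nd4 7858 and 6233 (0.833, 0.805 to 0.861), while mt-Nd1 (16557 and 15993, 1.01, 0.992 to 1.04) and mt-Nd2 (7761 and 7427, 1, 0.973 to 1.04) included 1. In complex III, mt-Cytb had a ratio of 0.825 (0.806 to 0.845) where the 9 nuclear genes had 1.06 to 1.23. In complex IV, the catalytic subunit gene mt-Co1 had 145671 and 124141 counts (0.894, 0.888 to 0.901), below each of the 10 common nuclear forms. The other complex IV genes, mt-Co2 (164 and 137 counts) and mt-Co3 (79 and 63), had few counts. So did mt-Atp6 (55 and 38) and mt-Nd3 (10 and 11). Their intervals include 1, the widest being 0.445 to 3.03 (mt-Nd3), and do not show whether these genes were level or lower. Of the 13 genes matched, mt-Nd4l and mt-Atp8 did not reach the mean count of 10. Reads without a unique place were set apart by the counter (6.65% of the control total and 6.92% of the other). Their part in the low counts was not tested, so a low count here does not show low expression.

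Assembly factors, which build the complexes but do not stay in them, had lower counts than subunits and a lower median ratio. Of 53 measured genes over all complexes, 19 had an interval above 1, 2 below and 32 included 1, where 22.6% of protein-coding genes lay above and 17.1% below. Their median log2 ratio was 0.15, and 0.05 after length adjustment, on lower counts (a median of 244 in the control against 1074 for subunits). By complex the medians were 0.16 for I (16 genes), 0.03 for II (4), 0.21 for III (6), 0.14 for IV (23) and 0.30 for V (4). The copper chaperone gene Cox17 (114 and 79 counts, 0.727, 0.539 to 0.978) and the complex III factor gene Ttc19 (206 and 151, 0.769, 0.619 to 0.954) were the 2 below 1. Cox19, a partner of Cox17 (291 and 390, 1.41, 1.21 to 1.64), and the ATP synthase factor gene Atpaf2 (334 and 439, 1.38, 1.19 to 1.60) were among those above.

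Ribosomal protein genes were set beside the chain for scale. The 77 measured mitochondrial ribosomal protein genes had a median log2 ratio of 0.20, and 0.10 after length adjustment. Of these, 42 had an interval above 1 and 1 below, at a median exon length of 2533 bases. The 75 cytosolic ribosomal protein genes had 0.28 and 0.14, with 73 above and 0 below. Among protein-coding genes, 22.6% lay above and 17.1% below. Intervals call more genes where counts are high. The median control count was 465 for the mitochondrial list, 7659 for the cytosolic list and 1074 for the chain. The nuclear respiratory chain genes, at 0.24 and 0.11, lay between these lists, and no difference from them was tested.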

How the data were processed

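The authors deposited raw counts, 1 table of Ensembl genes for each library. STAR 2.5.0a and HTSeq on mm10, after Trim Galore 0.6.1 and FastQC 0.11.8, are named per the submitters' processing notes. Which annotation release, HTSeq mode and strand option were used is not given in the sources used here, so overlapping antisense genes cannot be told apart. The 5 rows per table that name no gene stayed out of library sizes. They include reads in no gene (47.2% of the control total and 46.3% of the other).

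Symbols, exon lengths and transcripts came from GENCODE M21, where 54409 gene IDs were found. Counts were scaled with TMM factors (1.02 and 0.981) from edgeR 4.0.16 in R 4.3.3. No edgeR test was run, since groups of 1 library hold no replicate spread. Log2 ratios used a prior count of 2. The length trend was a lowess curve (span 0.3) of the log2 ratio on log10 exon length over protein-coding genes past the mean count of 10, from statsmodels 0.14.6 in Python 3.11.15. The code was tested on simulated data. The precision follows from 17426367 and 17267900 gene counts. PCR copies are not independent molecules, so intervals and floors reflect counting error alone.

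Members, gene lists and bounds were chosen with earlier results of these data known. Genes were named by role whatever their values. To these were added, per complex, the 2 with the highest lower bound and the 2 with the lowest upper bound among genes that reached 100 counts in either library, and any gene with an interval below 1. Others named were chosen after their values were seen. The values of 1 member that this rule names are not reported here, though it is counted in every group. The alternatives scaled by total counts, by size factors of DESeq2 1.42.0 or by upper quartile factors, or used other filters, prior counts, folds, interval levels, lengths and trends, and other member sets. Leaving out members that are overlapped by, or share sequence with, other genes, and counting Ndufa4 with complex IV, were chosen after seeing the data.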

Additional observations from a re-analysis of the deposited data

How the results depend on the processing

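The median log2 ratio of all members lay between 0.18 (total counts) and 0.25 (mean in place of median) over the alternatives tried, and the length-adjusted median between 0.07 and 0.16. It was 0.07 with the length of the principal transcript and with an expression trend removed after length, and 0.16 with all measured genes in the trend. Medians of single complexes kept their sign in each setting, but their order after length adjustment did not hold. The length-adjusted median of complex II ran from 0.01 (expression trend removed after length) to 0.10 (principal transcript, where it was the highest), and that of complex III from 0.01 to 0.11. The count of members at least 1.2-fold higher went from 32 to 18 with total counts, which lower every ratio, and 1 member, Cox4i2, was then at least 1.2-fold lower. Without a filter on low counts 1 gene, Ndufa4l2 with 4 and 1 counts, was lower by that fold. At 1.1-fold, 68 members were higher and 2 lower, and at 1.5-fold 2 were higher. The count of members above 1 went from 70 to 61 with total counts and to 64 with a 99% interval. The count of members below 1 went from 1 to 0 with a 99% interval and without genes that an antisense gene overlaps, of which Ndufs1 is 1. Without the 31 overlapped or repeated members, 43 of 50 were above 1, 0 below and 18 at least 1.2-fold higher. No paired analysis was possible because each group has 1 library. Leaving out a library was not possible for the same reason. At 17426367 and 17267900 gene counts, isoform genes with under 100 counts have intervals too wide to show differences of the size seen in the other members.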

Other observations

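Cycs, which encodes cytochrome c, had 1087 control counts and 1430 in the treated library (ratio 1.38, 1.28 to 1.5). Of all 14 measured carrier genes, which serve cytochrome c or ubiquinone, 7 had an interval above 1 and 2 below, where 22.6% and 17.1% of protein-coding genes lay. Coq3 (235 and 309 counts, 1.38, 1.16 to 1.64), Coq7 (254 and 318, 1.31, 1.11 to 1.56) and Coq5 (473 and 584, 1.3, 1.15 to 1.47), which modify the ubiquinone ring, were above. Pdss1, which makes the ubiquinone tail (131 and 92 counts, 0.737, 0.558 to 0.970), and Coq4 (147 and 103, 0.735, 0.566 to 0.953) were below.

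Of 13 measured regulator genes of respiration and mitochondrial DNA, 1 had an interval above 1 and 0 below, against 22.6% and 17.1% of protein-coding genes, with a median log2 ratio of -0.04. The 1 above was Esrra, an orphan nuclear receptor that acts with PGC-1 coactivators (1758 and 2156 counts, 1.29, 1.21 to 1.37). Nrf1 had 388 and 371 counts (1, 0.868 to 1.16), Gabpa 653 and 637 (1.02, 0.917 to 1.14), Yy1 2238 and 2227 (1.04, 0.985 to 1.11) and the mitochondrial DNA packaging gene Tfam 291 and 310 (1.12, 0.95 to 1.32). Among 12 genes of the mitochondrial membranes, import and chaperones, 8 had an interval above 1 and 0 below, beside the same 22.6% and 17.1%, with a median log2 ratio of 0.18. The porin genes Vdac1 (2732 and 3007 counts, 1.16, 1.1 to 1.22) and Vdac3 (1137 and 1227, 1.13, 1.04 to 1.23) were above, and Vdac2 (3657 and 3557, 1.02, 0.975 to 1.07) included 1.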
